A study of Arabidopsis thaliana with 2 samples.

Results

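Among the probes of a 2-colour array that carry exactly 1 gene name, 20 of 8819 named genes had a current symbol beginning with IQD, CML, CAM, CPK, CDPK, CIPK or CBL and a digit. These were 7 calmodulin-like (CML) genes and 13 IQ-domain (IQD) genes. The gene table lists 8 CML and 33 IQD genes by symbol. Of its 9 CAM, 9 CBL, 29 CPK, 5 CDPK and 21 CIPK genes, 0 had a named probe, so calmodulins, calcineurin B-like sensors and calcium-regulated kinases were not analysed here. A further 10 genes of the table match the name pattern only through a synonym, and 0 of them had a named probe. The rule took names and no measured values, and each member was represented by 1 probe.

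RNA came from Arabidopsis thaliana siliques, the fruits that carry the seeds, at 12 DAF. On both arrays rge1-1, a retarded growth of embryo mutant, was labelled with Cy3 and the Col-0 wild type with Cy5. The plants received no treatment, grew at 22 °C under 16 h of light and 8 h of dark, and the labels describe no pooling. Whole fruits hold embryo, endosperm, seed coat and fruit wall, so fewer cells of a type and less RNA per cell cannot be told apart, and channel ratios give no level with which to check the tissue against its markers. The labels do not say that replicates 1 and 2 came from separate plants, so p-values cover no more than the spread between the arrays, and this spread may be technical. With 0 dye-swapped arrays, a dye bias of a probe and a genotype difference cannot be told apart.

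Calcium ions act as a second messenger in plant cells. CML proteins bind calcium through EF-hands, as calmodulin does, and pass the signal to partner proteins. IQD proteins carry IQ motifs that bind calmodulin or related sensors, and many of them lie along microtubules or at the plasma membrane. A member of the IQD family shapes the tomato fruit at the SUN locus.

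Signs are those of the deposited table, which does not name the numerator of its ratios. A positive value stands for Col-0 over rge1-1 if Cy5 was divided by Cy3, and for the reverse if the order of the sample titles was followed. No sign is therefore called a rise or a fall in the mutant. Base 10 was assumed for the deposited logarithm in every log2 value and fold. The medians over all probes were 0.16 on replicate 1 and 0.022 on replicate 2 on the log2 scale, and the SDs over probes were 0.53 and 0.34, so a small positive value on replicate 1 can lie below the middle of that array.

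No CML or IQD gene passed the test or the fold count. With limma and Benjamini-Hochberg adjustment over 21426 rows, 0 of 20 members had an adjusted p under 0.05, as did 0 of all rows (0%), and the smallest adjusted p of a member was 0.666. Unadjusted limma p-values were under 0.05 for 0 members, against 6.6% of all rows. After each array was centred on its median they were so for 2 members, CML43 and IQD22, against 7.92% of rows. In the count without a p-value, 0 members were at least 1.5-fold from equal with one sign on both arrays, against 2.54% of all rows and 2.56% of named genes. At that share 0 of 20 is near the background. All 20 of the 95% intervals from limma included 0, and 16 of them lay within 2-fold of equal in both directions. The intervals of 7 members, 1 CML and 6 IQD genes, lay within 1.5-fold. For the other 13, a 1.5-fold difference in at least 1 direction was not excluded by the interval. Over all 21426 rows, 20011 intervals included 0, 17809 lay within 2-fold and 9188 within 1.5-fold. After centring, 18 of 20 member intervals included 0 and 10 lay within 1.5-fold, against 19730 and 12955 of 21426 rows.

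**Figure D1:**
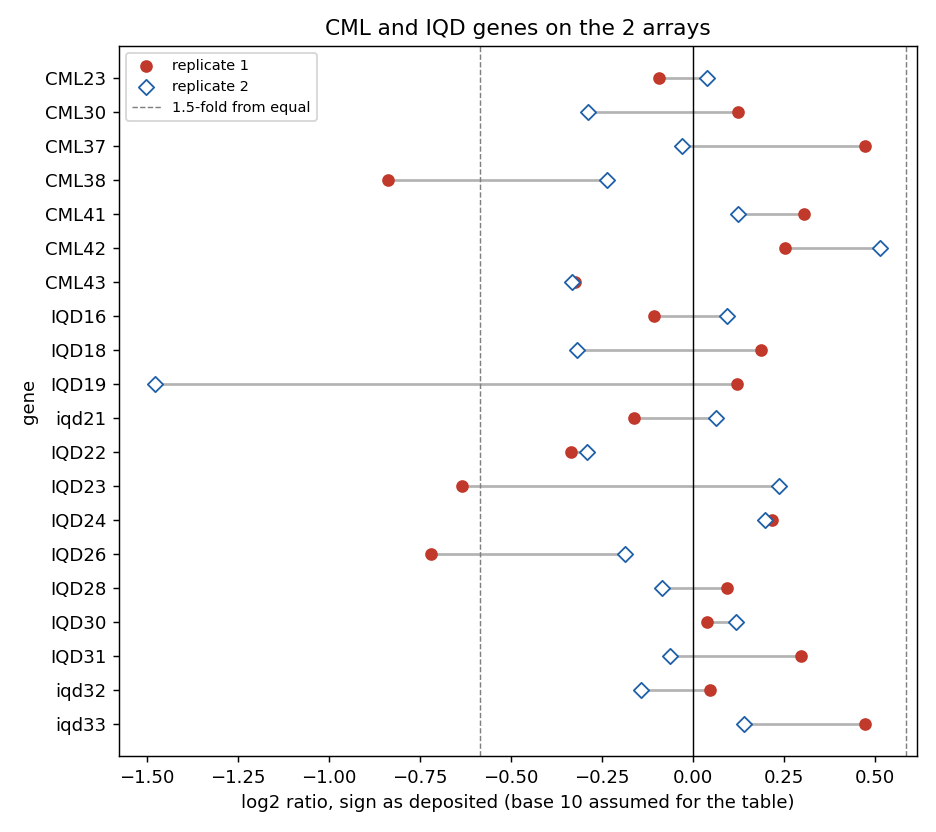
Log2 ratio (x axis, deposited sign) of each of the 7 CML and 13 IQD genes (y axis) on replicate 1 (filled circles) and replicate 2 (open diamonds), with dashed lines at 1.5-fold. Points past a dashed line are CML38, IQD23 and IQD26 on replicate 1 and IQD19 on replicate 2, and no gene has both points past the same line.

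The calmodulin-like genes had ratios of either sign, 2 being positive on both arrays (28.6%), 2 negative on both (28.6%) and 3 opposite (42.9%). Over all rows these shares were 42.5%, 16.6% and 37.8%. The CML means ran from -0.54 to 0.38 on the log2 scale. CML38 (AT1G76650), a gene induced by low oxygen, had the lowest of these means. Its log2 ratio was -0.84 on replicate 1 and -0.24 on replicate 2, with a mean of -0.54 ± 0.42 (SD, n = 2) and a 95% interval from -1.21 to 0.13. Both values were negative, but replicate 1 was 1.79-fold from equal and replicate 2 only 1.18-fold.

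CML42 (AT4G20780), which acts in trichome branching and in defence against herbivores, was the most positive CML gene. It stood at 0.25 on replicate 1 and 0.51 on replicate 2, with a mean of 0.38 ± 0.19 (SD, n = 2) and an interval from -0.058 to 0.83. Replicate 2 carried most of this ratio, and 96.9% of all rows lay below CML42 there, against 64.3% on replicate 1.

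CML43 (AT5G44460), a close relative of CML42 linked to pathogen responses, had the opposite sign on both arrays. Its log2 ratio was -0.32 on replicate 1 and -0.33 on replicate 2, a mean of -0.33 ± 0.0054 (SD, n = 2) or 1.26-fold, and its interval ran from -0.70 to 0.040. As deposited, the arrays lay closer together for CML43 than for any other member, 0.0076 apart. Of all rows, 97.5% were at least as far apart. With each array centred on its median, CML43 was -0.48 on replicate 1 and -0.35 on replicate 2. IQD28, at -0.067 and -0.106, then had its arrays closer together than CML43. By limma the adjusted p of CML43 as deposited was 0.666 (unadjusted p = 0.0659). In that form 7.4% of all rows had one sign and a smaller absolute ratio at least as large. Its probe was not checked for cross-hybridisation with CML42.

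CML41 (AT3G50770), whose protein lies at plasmodesmata and takes part in the callose response to flagellin, was positive on both arrays. It had 0.31 on replicate 1 and 0.12 on replicate 2, a mean of 0.21 ± 0.13 (SD, n = 2). These values lay at about the same place within each array, above 72.1% and 72.0% of rows.

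The other CML genes changed sign between the arrays. CML37 (AT5G42380), a gene of the jasmonate defence response to insect feeding, was 0.47 on replicate 1 and -0.030 on replicate 2. CML30 (AT2G15680), whose protein is found in mitochondria, was 0.13 and -0.29. CML23 (AT1G66400), which acts with its relative CML24 in the timing of flowering, was -0.093 and 0.038, the mean nearest to 0 of the CML genes.

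Of the IQD genes, 3 were positive on both arrays (23.1%), 2 negative on both (15.4%) and 8 of opposite signs (61.5%). Over all rows these shares were 42.5%, 16.6% and 37.8%. Among the IQD genes of one sign, IQD22 (AT4G23060) was furthest from equal on the array with its smaller ratio. It stood at -0.34 on replicate 1 and -0.29 on replicate 2, with a mean of -0.31 ± 0.031 (SD, n = 2) or 1.24-fold and an interval from -0.68 to 0.057. IQD22 and CML43 were the only members at least 1.2-fold from equal with one sign on both arrays, both negative. That made 2 of 20 members, against 10.2% of all rows and 4.42% for the negative sign.

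IQD26 (AT3G16490) was also negative on both arrays, at -0.72 on replicate 1 and -0.19 on replicate 2, with a mean of -0.45 ± 0.38 (SD, n = 2). As for CML38, replicate 1 held the larger ratio, 1.65-fold against 1.14-fold.

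The IQD genes positive on both arrays were iqd33, IQD24 and IQD30. For iqd33 (AT5G35670) the log2 ratio was 0.47 on replicate 1 and 0.14 on replicate 2, a mean of 0.31 ± 0.24 (SD, n = 2). IQD24 (AT5G07240) was 0.22 and 0.20, a mean of 0.21 ± 0.013 (SD, n = 2). IQD30 (AT1G18840) was 0.039 and 0.12, and its mean of 0.079 became -0.012 once each array was centred on its median.

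IQD19 (AT4G14750) had the widest gap between the arrays of all members, with a log2 ratio of 0.12 on replicate 1 and -1.48 on replicate 2. The second value is 2.79-fold from equal and lies above only 0.509% of the rows of that array, while the first lies above 44.6% of the rows of its own. Only 2.3% of all rows had arrays at least this far apart. The mean of -0.68 ± 1.13 (SD, n = 2), the lowest of the 20 genes, thus rests on replicate 2, and without that array the value is 0.12.

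IQD23 (AT5G62070) had the next widest gap, in the other direction, with -0.63 on replicate 1 and 0.24 on replicate 2. Its mean of -0.20 ± 0.62 (SD, n = 2) had an interval from -1.09 to 0.69. As deposited, the direction of neither gene held on both arrays. With each array centred, IQD19 was negative on both, at -0.038 on replicate 1 and -1.50 on replicate 2. IQD23 stayed opposite, at -0.79 and 0.21.

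The other 6 IQD genes had means close to equal and opposite signs on the arrays. IQD18 (AT1G01110) was 0.19 on replicate 1 and -0.32 on replicate 2, and IQD31 (AT1G74690) was 0.30 and -0.063. The means of IQD16 (AT4G10640), iqd21 (AT3G49260), IQD28 (AT1G14380) and iqd32 (AT1G19870) were -0.0068, -0.049, 0.0042 and -0.049 on the log2 scale. Each of these means was smaller than the SD between its arrays, which ran from 0.12 for IQD28 to 0.16 for iqd21.

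**Figure D2:**
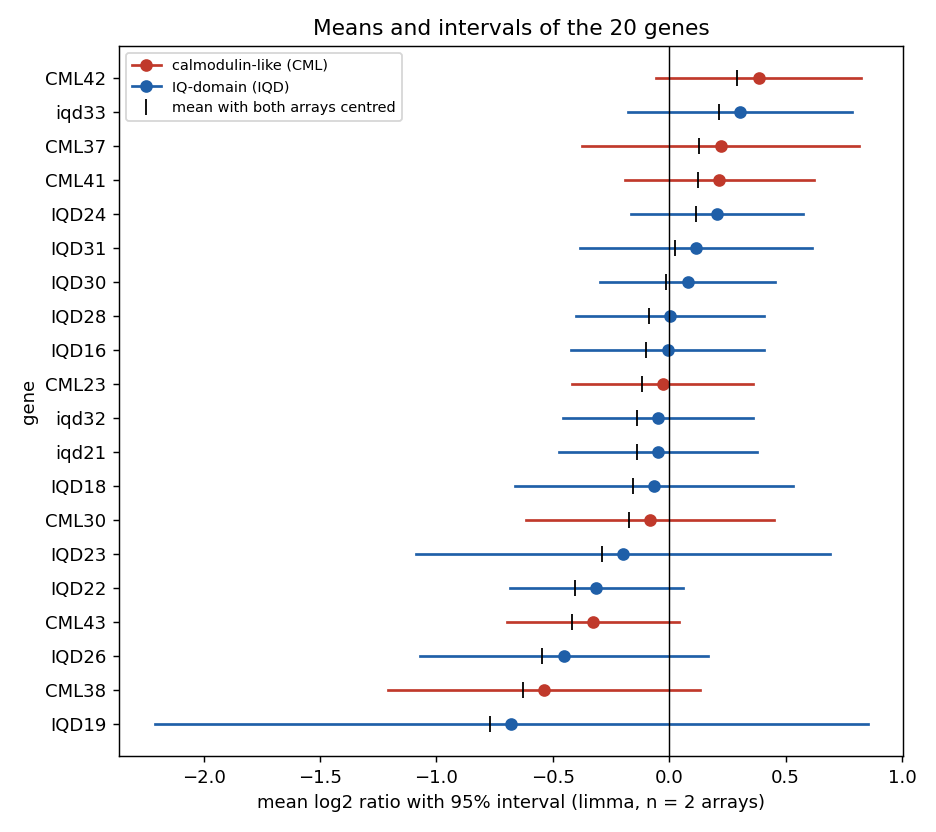
Mean log2 ratio (x axis, n = 2 arrays) of the 20 genes (y axis, ordered by mean) as circles with 95% intervals from limma as lines, CML genes in red and IQD genes in blue, and the mean after centring each array as a black tick. Every line crosses 0, from CML42 at 0.38 down to IQD19 at -0.68, whose line is the longest.

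Set side by side, the classes had similar medians, and this is a description without a test because genes are not replicates of a genotype. The median of the mean log2 ratio was -0.028 over the 7 CML genes and -0.049 over the 13 IQD genes, against 0.081 over the 8819 named genes. On single arrays the CML median was 0.13 on replicate 1 and -0.030 on replicate 2, and the IQD median was 0.047 and -0.063, so as deposited neither class median kept its sign between arrays. With each array centred on its median, both were negative on both arrays, at -0.034 and -0.052 for CML and -0.113 and -0.086 for IQD genes. The 8819 named genes, in the same order of arrays, had medians of 0.16 and 0.021 as deposited. After centring these were -0.00050 and -0.0012.

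Members lay on both sides of the middle of the arrays. As deposited, 5 of 20 were positive on both arrays, 4 negative on both and 11 opposite, or 25%, 20% and 55%, where the named genes had 41.9%, 17.0% and 38.5%. Centring each array, which subtracts its median from every value, left 4 positive, 8 negative and 8 opposite, or 20%, 40% and 40%, against 30.2%, 30.6% and 39.2% of the named genes. CML30, IQD19, IQD28 and iqd32 then became negative on both arrays, and IQD30 opposite. The class medians became -0.12 for CML and -0.14 for IQD genes, against -0.0098 for the named genes.

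The size of the ratios was near that of other genes. The median absolute mean was 0.20 over the members and 0.16 over the named genes, and the median gap between arrays was 0.24 and 0.25. On replicate 1, 3 of 20 members (15%) were at least 1.5-fold from equal, against 16.3% of named genes. On replicate 2 the share was 1 of 20 (5%) against 6.47%.

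**Figure D3:**
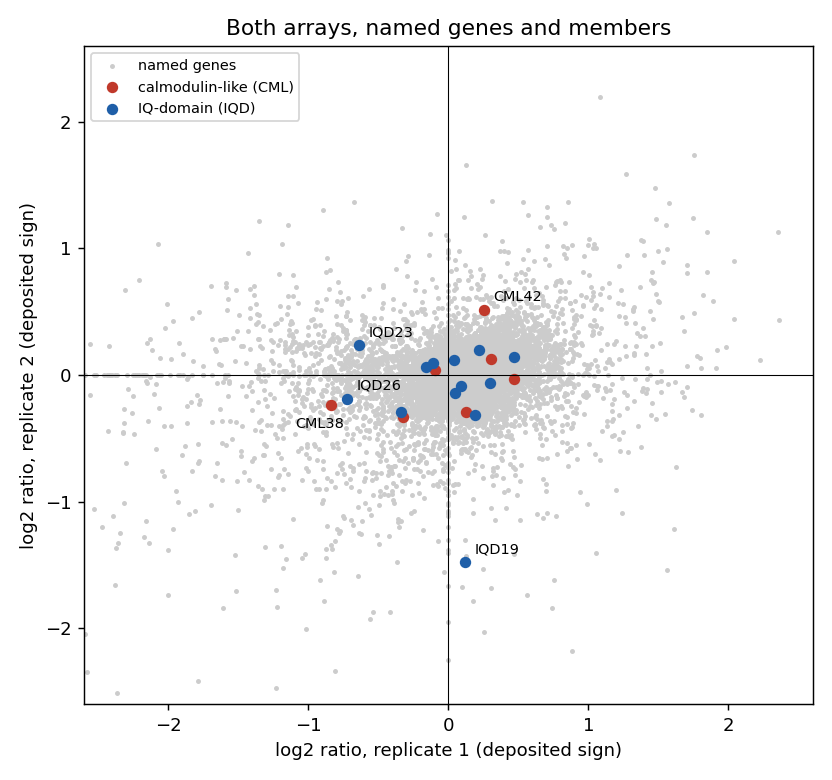
Log2 ratio on replicate 1 (x axis) against replicate 2 (y axis), deposited signs, for named genes in grey, CML genes in red and IQD genes in blue; 28 named genes lie beyond the axes. Most members lie within the grey cloud, and IQD19 at 0.12 and -1.48 lies low on replicate 2, above 0.509% of all rows there.

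Of the wider calcium pathway, 7 glutamate receptor-like (GLR) genes, which encode calcium-permeable channels, and the calreticulin gene CRT1b had a named probe. Pumps and exchangers, CAMTA factors and annexins had 0. By limma 0 of the 7 GLR genes had an adjusted p under 0.05, as did 0% of all rows, and 2 had an unadjusted p under 0.05, against 6.6% of rows. As deposited their median mean was 0.048, with 5 positive on both arrays, where 42.5% of all rows were, 1 negative on both and 1 with a value of exactly 0. Centring turned the median to -0.043, with 3 positive on both arrays, 3 negative on both and 1 opposite. The shares of these signs over all rows were then 30.6%, 30.6% and 38.8%.

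GLR3.3 (AT1G42540), which with GLR3.6 carries calcium waves from wounded leaves, was at least 1.5-fold from equal and positive on both arrays, as were 0.975% of all rows. It stood at 0.83 on replicate 1 and 0.67 on replicate 2, a mean of 0.75 ± 0.12 (SD, n = 2) or 1.68-fold, with a limma adjusted p of 0.666 (unadjusted p = 0.00949). GLR3.6 (AT3G51480) was 0.058 and 0.0039. GLR1.4 (AT3G07520), an amino acid-gated channel gene, was 0.50 and 0.36, with an unadjusted p of 0.0403 and an adjusted p of 0.666 by limma.

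GLR2.8 (AT2G29110) was positive on both arrays, at 0.41 and 0.25, and GLR3.5 (AT2G32390) stood at 0.066 and 0.029. GLR2.7 (AT2G29120), which with GLR2.8 takes part in calcium entry during immunity, was -1.15 on replicate 1 and -0.0090 on replicate 2. GLR2.2 (AT2G24720) was -2.38 on replicate 1 and is listed at exactly 0 on replicate 2. That array lists 474 probes at exactly 0, and whether these are measured ratios was not tested. The ratios of GLR2.2 and GLR2.7 were thus held by replicate 1 alone. CRT1b (AT1G09210), for a calcium-binding chaperone of the endoplasmic reticulum, was 0.23 and 0.10.

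**Figure D4:**
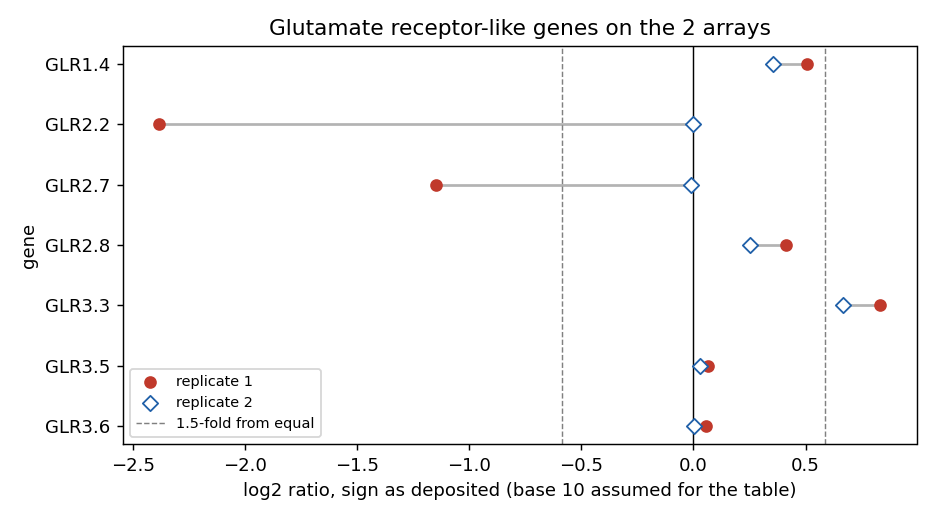
Log2 ratio (x axis, deposited sign) of the 7 GLR genes (y axis) on replicate 1 (filled circles) and replicate 2 (open diamonds), with dashed lines at 1.5-fold. GLR3.3 has both points past the positive line, at 0.83 and 0.67, and GLR2.2 and GLR2.7 are past the negative line on replicate 1 only.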

How the data were processed

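The deposited table holds log10 ratios between channels, made by the authors, for 2 arrays of 21500 probes. The base of the logarithm and the order of the ratio are not written in the deposited table, and base 10 was assumed from the form of the values. Agilent Feature Extraction 7.1.1 is named, per the submitters' processing notes. How background and dyes were corrected is not given in the sources.

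Gene names came from the 2007 annotation of the platform, and current symbols from the TAIR10.1 table through gene IDs. A single name was found for 8893 probes, several for 39 and none here for 12568. Values were converted to log2 and probes of a gene averaged, giving 21426 rows. The test of a mean ratio of 0 used limma (version 3.58.1, R version 4.3.3) with an intercept as the whole design, moderated by eBayes, two-sided and adjusted by Benjamini-Hochberg over every row. The number of arrays limits the precision.

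The rule that picked members by symbol uses no measured value, but it and the lists were chosen with earlier results of these data known. A separate rule, based on the measured values, chose the genes given with full values. It took members at least 1.5-fold from equal with one sign on both arrays. It also took up to 5 members per class with the largest smaller absolute ratio of one sign. The 2 per class with the widest gap between arrays were added. Up to 4 per wider list were named, and the others in the channel list and all other members were named for completeness. Alternatives were centring, scaling, leaving out values of exactly 0, each probe alone, robust or no moderation, other thresholds, base 2 and single arrays. Sequences of the genes and probes were not used here.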

Additional observations from a re-analysis of the deposited data

How the results depend on the processing

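No paired analysis was possible because the labels give 1 group of arrays with no second group to pair it with; each ratio already sets both genotypes of an array against each other. The count of 0 limma calls among the 20 members held under centring, scaling, leaving out values of exactly 0 (also with centring), each probe alone, robust eBayes, no moderation and an adjusted p under 0.10, with a smallest adjusted p of a member between 0.482 and 0.808. Over all rows there were 55 calls without values of exactly 0 (0.265%) and 11 with no moderation (0.0513%), all 11 with equal values on both arrays, and 0 in the other refits. Unadjusted p-values were under 0.05 for 3 members with scaling, as for 9.08% of all rows, and for 3 with no moderation, as for 4.96%. For the 1.5-fold agreement of both arrays the count was 0, against 2.54% of all rows, and at 1.2-fold it was 2, against 10.2%. A single array requires no agreement of sign. There the count was 1 without replicate 1 and 3 without replicate 2, against 6.35% and 15.9% of all rows. With agreement of both arrays the count stayed 0 at 2-fold, where 0.691% of all rows passed, and with values read as log2. It was also 0 under centring, where 575 of 21426 rows passed, and under scaling, leaving out exact zeros and each probe alone. At such shares 0 of 20 is near the background. Synonym matches added 0 genes. On single arrays the CML median was -0.0301 without replicate 1 and 0.125 without replicate 2, and the IQD median -0.0635 and 0.0465. Centring, with or without values of exactly 0, moved the CML median to -0.119 and the IQD median to -0.140, and scaling moved them to -0.0950 and -0.107. The mean of IQD28, 0.0042 as deposited, was -0.0868 with centring, in both forms, and -0.0950 with scaling, and that of IQD30 was -0.0119 with centring, in both forms. On single arrays the sign turned for 7 members without replicate 1 and for 4 without replicate 2, which are the 11 of opposite signs. Their lowest and highest values were -0.0930 and 0.0375 for CML23, -0.289 and 0.125 for CML30, -0.0301 and 0.472 for CML37, -0.108 and 0.0943 for IQD16, and -0.319 and 0.188 for IQD18. They were -1.48 and 0.122 for IQD19, -0.634 and 0.236 for IQD23, -0.0840 and 0.0924 for IQD28, -0.0635 and 0.296 for IQD31, -0.162 and 0.0641 for iqd21, and -0.144 and 0.0465 for iqd32. The description of protein features was not run, since no protein sequences were used here.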
